A study of Mus musculus with 36 samples.

Results

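The genes described here are those of GABA signalling and of the cortical interneurons that release GABA. They comprise subunits of the GABA-A and GABA-B receptors, gephyrin, the enzymes and the transporter that make and load GABA, interneuron peptides and calcium-binding proteins, and the transcription factors and surface proteins of the interneuron lineage. Of 33 gene symbols named for this set, 30 had a mean count above 5 over the 36 libraries and were tested, among 20355 tested genes of the 55492 entries in the table. The other 3, Pvalb, Vip and Crh, fell below that mean and are given by their counts. The set was drawn up by gene name with earlier results of these data known.

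GABA is the main inhibitory transmitter of the cortex. Gad1 and Gad2 make it from glutamate, and Slc32a1, the vesicular GABA transporter, loads it into synaptic vesicles. It acts through GABA-A receptors, which are chloride channels assembled from subunits of the alpha, beta, gamma, delta and other families, and through GABA-B receptors, G protein-coupled dimers of Gabbr1 and Gabbr2. Gephyrin (Gphn) is the scaffold that holds GABA-A and glycine receptors at the synapse. Receptor subunits are made by excitatory and inhibitory neurons alike, whereas Gad1, Gad2, Slc32a1, Sst and the Dlx and Lhx6 transcription factors mark the inhibitory ones. Cortical interneurons are born in the ganglionic eminences, where Dlx1, Dlx2, Dlx5 and Dlx6 act early and Lhx6 and Sox6 act in the cells that become Sst and Pvalb interneurons.

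All 36 libraries were made from cultures of dissociated cortical cells of mouse embryos at E18, the commercial cells named C57EDCX in the labels. Control cultures received fresh medium, DEX cultures 1 µM dexamethasone, a glucocorticoid receptor agonist, and DEX + RU-486 cultures 1 µM dexamethasone with 1 µM RU-486 (mifepristone), an antagonist of that receptor. Treatment began on day 11 in vitro and lasted 72 h, with replenishment at 48 h according to the methods, and no group with RU-486 alone is part of these data. Each group had 12 libraries, 6 in each of the 2 batches that the labels give. The labels do not say which libraries came from separate dissections, so p-values measure the spread between these libraries. A library held between 12.1 and 82.4 M counts.

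RNA integrity, the RIN of the labels, did not fall evenly on the groups. In batch 1 the controls had a RIN of 7.8 to 9.2 and 24.2 to 82.4 M counts, DEX libraries a RIN of 3.9 to 7.8 and 12.1 to 22.3 M, and DEX + RU-486 libraries a RIN of 5.6 to 7.9 and 17.4 to 26.7 M. Batch 2 included 6 libraries (2 per treatment) whose RIN was under 3, while its other 12 had a RIN of 7.4 to 8.7. The 12 are called intact here, and batch 2 was tested on them. In DEX + RU-486 libraries 35 and 36 of batch 2, with a RIN of 8.7 and 8.5, 15 of the 30 genes lay below all 10 other intact libraries of that batch, as did 7.19% of all genes, and the edgeR comparisons of DEX + RU-486 in batch 2 are therefore also given without them. In batch 1, libraries 1 (control), 7 (DEX) and 13 (DEX + RU-486) had the highest Gabra3 and Calb1 of their groups. Ddx3y, a Y-linked gene, was near 0 in 10 of the 18 libraries of batch 1, 4 control, 3 DEX and 3 DEX + RU-486, and at 14.1 CPM or above in all of batch 2. CPM is the count of a gene per M counts of the library, with library totals scaled by TMM factors over the tested genes.

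Markers of the labelled cell type were present. The summed level of 7 genes of excitatory cortical neurons was 678 to 912 CPM in the batch 1 controls and 550 to 565 CPM in the intact batch 2 controls. Genes of striatal projection neurons, the other GABA neurons near the dissection, summed to 32.3 to 39.3 CPM and 28.3 to 31.2 CPM in the same controls, with Drd1 and Adora2a under 1 CPM in each of these libraries. Of the 8 genes 1, Adora2a, was higher than control in batch 1 in both treatments. The log2 fold changes were 1.84 in DEX and 1.83 in DEX + RU-486 (edgeR adjusted p = 0.0251 and 0.0288). Over all genes 8.99% and 6.92% were higher in these comparisons. Adora2a also stayed under 1 CPM in every DEX library of batch 1.

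Per kilobase of exon, the receptor genes led the set in batch 1. Gabbr1 stood highest in the batch 1 controls at 40.4 ± 3.64 CPM per kb (SD, n = 6), followed by Gabra5 at 34.3 ± 5.03 and Cck, a peptide of some interneurons and of many excitatory neurons, at 34.1 ± 4.84. Next came Gabbr2 at 27.1 ± 3.62, Gabra2 at 26.6 ± 2.95 and Sst, the peptide somatostatin, at 26.1 ± 11.7 CPM per kb. Gabra5 and Cck differed by less than their SD, as did Gabbr2, Gabra2 and Sst. Crhbp, which binds the stress peptide CRH, was lowest at 0.0428 CPM per kb.

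The order was different in the intact controls of batch 2. Sst led at 154 ± 35.8 CPM per kb (SD, n = 4), far above Gabbr1 at 30.8 ± 1.05, and Cck at 19.1 ± 1.13, Gad1 at 18.97 ± 2.04 and Gabra5 at 17.5 ± 0.876 CPM per kb followed within their spread. Gabrd, the delta subunit of extrasynaptic GABA-A receptors, was lowest at 0.177 CPM per kb. Sst is a short transcript, with 0.721 kb of annotated exon, and ranked 5 by CPM without division by length.

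**Figure D1:**
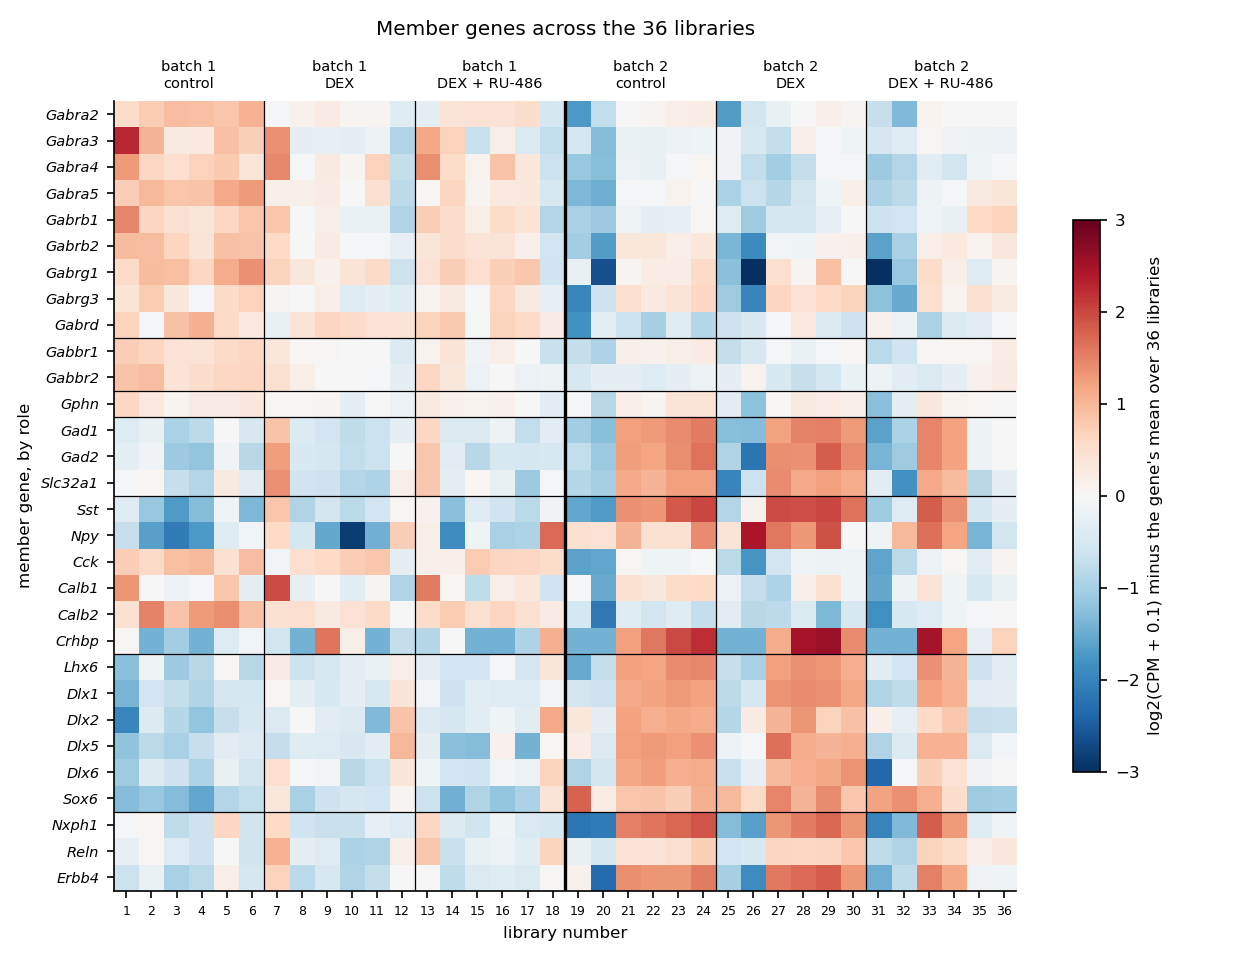
Level of each gene in each of the 36 libraries, as log2(CPM + 0.1) minus the mean of that gene over all libraries, with libraries (columns) grouped by batch and treatment and genes (rows) ordered by role. Gad1, Gad2, Sst and 12 other genes stand higher in the intact controls of batch 2 than in the controls of batch 1 (14.9% of all genes did so without overlap), and 12 of the 30 genes lie lower in all 6 libraries with a RIN under 3 (10.8% of all genes).

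The first question was how the set differed between DEX and control cultures. In batch 1, 9 of the 30 genes were lower and 2 higher in DEX at a Benjamini-Hochberg adjusted p under 0.05 in edgeR's quasi-likelihood test. Over all tested genes 9.99% were lower and 8.99% higher, and since the set was drawn up with earlier results known, its share of lower genes is a description. The lower genes were 5 of 9 GABA-A subunits (Gabra2, Gabra5, Gabrb2, Gabrg1, Gabrg3), both GABA-B subunits, Gphn and Calb2. The higher ones were the transcription factors Dlx1 and Sox6. The median log2 fold change was -0.01 over the 30 genes and 0.06 over all tested genes, since 15 genes had negative and 15 positive values. In RNA from whole cultures, fewer cells of a type and less RNA per cell cannot be told apart.

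Gabra2, which encodes the alpha 2 subunit of synaptic GABA-A receptors (chr5:70957597-71095849, minus strand, GRCm38), had the smallest adjusted p of the set. Its level in the 6 control libraries of batch 1 was lowest at 166 CPM, with a median of 206 and a highest value of 233 CPM, and in the 6 DEX libraries the lowest, median and highest values were 87.8, 119.5 and 134 CPM. Every DEX library was below every control library. The log2 fold change was -0.78 with an SE of 0.15 (adjusted p = 0.00195).

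Gabra5 encodes the alpha 5 subunit, a mostly extrasynaptic one (chr7:57407672-57510059, minus strand). Its control libraries of batch 1 ran from 86.1 CPM through a median of 97.3 to 126 CPM, and its DEX libraries from 30.1 through 58.4 to 72.5 CPM. These groups also did not overlap, and the log2 fold change was -0.85 (SE 0.17, edgeR adjusted p = 0.00231). The lowest DEX value came from library 12, whose RIN of 3.9 was the lowest of batch 1.

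The beta and gamma subunits that were called lower had smaller differences and overlapping groups. Gabrb2, a beta subunit of common synaptic receptors, was at 30.6 to 45.1 CPM (median 42.4) in control and 19.6 to 35.1 CPM (median 22.8) in DEX libraries of batch 1, with a log2 fold change of -0.65 (SE 0.16, edgeR adjusted p = 0.00780). Gabrg3 was at 13.98 to 24.5 CPM (median 20.4) in control and 11.1 to 16.7 CPM (median 13.1) with DEX, and its log2 fold change was -0.55 (SE 0.16, edgeR adjusted p = 0.0182). For Gabrg1 the ranges were 8.47 to 14.8 CPM (median 10.7) and 3.54 to 8.97 CPM (median 7.25), with a log2 fold change of -0.63 (SE 0.22, edgeR adjusted p = 0.0490). The call of Gabrg1 was lost when any of 8 libraries was left out, with its adjusted p at up to 0.105.

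The other GABA-A subunits had negative values that did not pass in edgeR. DESeq2 called 10 of the 30 genes lower and 3 higher in this comparison, beside 10.4% and 12.7% of all genes, and among its lower calls was Gabrb1. Gabra3 had a log2 fold change of -0.95 (SE 0.39, edgeR adjusted p = 0.0955) and Gabrb1 one of -0.70 (SE 0.25, adjusted p = 0.0541). Without libraries 1, 7 and 13, which carried the highest Gabra3 values, both were called lower, at -0.999 and -0.75. That setting was chosen after seeing the data, so these calls are a description. Gabra4, at -0.27, and Gabrd, at -0.20, were within 1 SE of 0 and did not pass with or without these libraries.

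Both subunits of the GABA-B receptor were lower in DEX in batch 1. Gabbr1 (chr17:37045966-37075067, plus strand), which binds GABA, was at 278 CPM in its lowest control library, with a median of 319 and a highest value of 350.4 CPM, and at 158, 214 and 267 CPM in DEX. No DEX library reached the lowest control, and the log2 fold change was -0.52 (SE 0.14, edgeR adjusted p = 0.0121). Gabbr2, which couples the receptor to G proteins, ran from 151 through 176 to 215 CPM in control and from 93.7 through 114 to 156 CPM in DEX. Library 7 was the only DEX library of Gabbr2 within the control range, and the log2 fold change was -0.57 (SE 0.14, edgeR adjusted p = 0.00895). Gphn differed least, with 29.97 to 44.1 CPM (median 34.5) in control and 23.1 to 29.96 CPM (median 28.9) with DEX, and its log2 fold change was -0.32 (SE 0.11, edgeR adjusted p = 0.0469). The highest DEX library of Gphn was barely below the lowest control, and the call was lost when any of 6 libraries was left out.

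**Figure D2:**
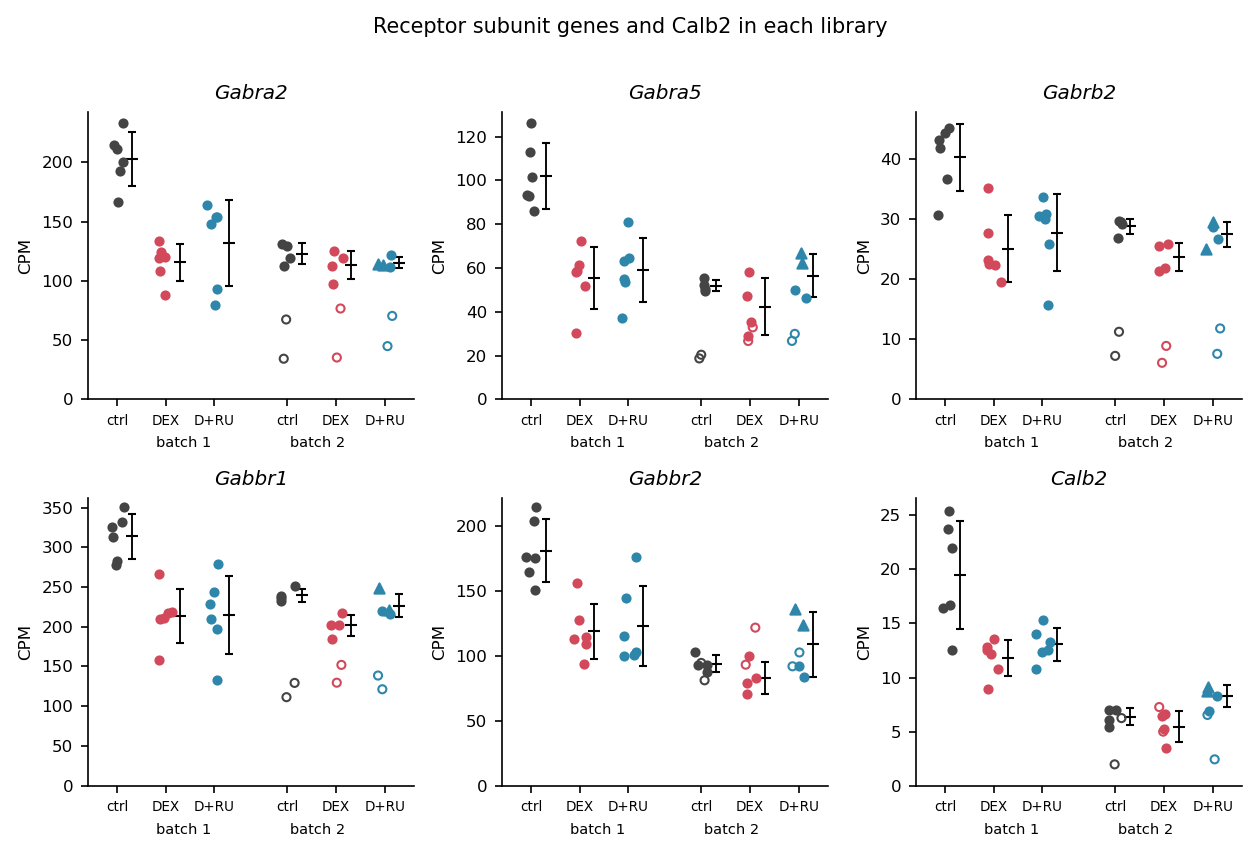
CPM of receptor genes in every library by treatment and batch, with open circles for a RIN under 3, triangles for libraries 35 and 36, and bars for the mean ± SD of the libraries with a RIN of 3 or above. In batch 1 the Gabra2 points of DEX (87.8 to 134 CPM) lie below those of control (166 to 233 CPM), while in batch 2 the filled Gabra2 points of these groups overlap.

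Calbindin 2 (Calb2, calretinin, chr8:110137502-110168210, minus strand) is a calcium-binding protein of 1 interneuron class. Calb2 was the lower gene outside the receptor subunits and Gphn. Its control libraries of batch 1 ran from 12.5 through 19.3 to 25.4 CPM and its DEX libraries from 8.97 through 12.3 to 13.5 CPM. Only library 1 of the controls fell within the DEX range. The log2 fold change was -0.69 (SE 0.16, edgeR adjusted p = 0.00464).

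Among the interneuron transcription factors all 6 values were positive in batch 1, and 2 passed. Dlx1 was at 10.2 to 19.1 CPM (median 17.3) in control and 19.4 to 35.3 CPM (median 22.2) in DEX, without overlap, and rose by 0.63 on the log2 scale (SE 0.17, edgeR adjusted p = 0.0111). Sox6, at 3.79 to 6.76 CPM (median 4.87) in control and 5.75 to 14.3 CPM (median 7.82) in DEX, rose by 0.86 (SE 0.28, edgeR adjusted p = 0.0319), a call that was lost on leaving out any of 6 libraries. Sox6 is also made by oligodendrocyte precursors. Lhx6, Dlx2, Dlx5 and Dlx6 had log2 fold changes of 0.48, 0.77, 0.67 and 0.64 with adjusted p between 0.111 and 0.180. Dlx1, Dlx6, Slc32a1, Gabra5, Gphn and Reln share exonic bases with antisense genes, as Gabra4 and Gabrb1 do with each other. No source used here states whether counting used the strand, so reads of each pair cannot be told apart. Lhx6 shares exonic bases with a gene on its own strand.

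The genes that make and load GABA did not pass in batch 1. Gad1 was at 28.9 to 56.1 CPM (median 41.4) in control and 32.8 to 102 CPM (median 39.5) with DEX, and its log2 fold change was 0.28 (SE 0.25, edgeR adjusted p = 0.470), and its highest value was that of library 7. Gad2 had 10.9 to 23.3 CPM (median 17.3) in control and 14.9 to 60.2 CPM (median 17.8) in DEX, at 0.58 (SE 0.33, edgeR adjusted p = 0.223). Slc32a1 had 4.23 to 9.53 CPM (median 6.96) and 4.07 to 20.6 CPM (median 5.13), at 0.27 (SE 0.36, edgeR adjusted p = 0.648). Library 7 was the highest DEX library for each of these 3 genes. Without libraries 1, 7 and 13 the log2 fold changes were -0.06 for Gad1, 0.17 for Gad2 and -0.23 for Slc32a1, all within 1 SE of 0.

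The peptide Sst was at 10.7 to 31.8 CPM (median 14.96) in control and 18.5 to 61.9 CPM (median 23.4) with DEX in batch 1, a log2 fold change of 0.73 (SE 0.30) that did not pass in edgeR (adjusted p = 0.0947) and passed in DESeq2 (0.77, adjusted p = 0.0447). Npy, at 0.295 to 1.49 CPM (median 0.699) in control and 0.136 to 2.72 CPM (median 0.802) in DEX, had a log2 fold change of 0.63 with an SE of 0.64 (adjusted p = 0.535). Reln, a secreted protein of Cajal-Retzius cells and interneurons, Erbb4, the neuregulin receptor of interneurons, and Nxph1, a secreted neurexin ligand, had values of 0.27, 0.22 and -0.09 with SEs of 0.24 to 0.29. Cck was at -0.31 and Calb1 at 0.06. Crhbp was at 0 counts in several libraries, and its value of 1.18 had an SE of 1.06.

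In the comparison of DEX + RU-486 with control in batch 1, which uses the same control libraries, 6 of the 30 genes were lower and 0 higher, against 8.46% lower and 6.92% higher over all genes. DESeq2 called 6 lower and 2 higher, beside 9.2% and 11% of all genes, and at an unadjusted p under 0.05 edgeR gave 2 higher and 8 lower beside 15.2% and 14.9% of all genes. The 6 were Gabra2 (-0.60, SE 0.15), Gabra5 (-0.77, SE 0.17), Gabrb2 (-0.52, SE 0.16), Gabbr1 (-0.53, SE 0.14), Gabbr2 (-0.54, SE 0.14) and Calb2 (-0.56, SE 0.15), with edgeR adjusted p between 0.00636 and 0.0313. All 6 were also lower in DEX.

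Gabra2 in the DEX + RU-486 libraries of batch 1 was at 79.6, 151 and 164 CPM (lowest, median, highest), just below the lowest control at 166 CPM. Gabra5 was at 37.0, 59.1 and 81.2 CPM, and its highest library was also below every control. Gabbr1, with 133, 219 and 279 CPM, overlapped the controls in a single library by less than 1 CPM, and Gabbr2, with 99.9, 109 and 176 CPM, overlapped them through library 13. Calb2 lay between 10.8 and 15.3 CPM (median 12.9) and Gabrb2 between 15.6 and 33.7 CPM (median 30.2). The call of Gabrb2 was lost when any of 6 libraries was left out, with edgeR adjusted p up to 0.0634. That of Calb2 was lost on leaving out 1 of the 12 libraries left out in turn. Gad1, Gad2, Slc32a1, Sst and Npy had values of 0.28, 0.37, 0.21, 0.48 and 1.11, none of which passed (edgeR adjusted p of 0.248 or above).

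In batch 1 edgeR called 0 of the 30 genes for DEX + RU-486 against DEX, and its share over the whole table was 0% in each direction. DESeq2 also called 0, beside 0.00492% of the table in each direction. At an unadjusted p under 0.05 edgeR gave 0 of the 30, where 1.774% of the table had positive and 2.319% negative values. The 9 GABA-A subunits had log2 differences of 0.08 to 0.28, all positive, and the GABA-B subunits of -0.01 and 0.03. For the 30 genes the SEs ran from 0.11 to 1.11, so the lack of calls does not show equal levels.

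Several measured properties moved with treatment in batch 1. With RIN as a covariate edgeR called 0 of the 30 genes in either comparison with control (4 in each at an unadjusted p under 0.05, beside 19.3% and 19.7% of all genes), where 565 and 529 genes were still called over the whole table, and DESeq2 was not run with that covariate. The log2 fold change for DEX was then -0.37 for Gabra2 (adjusted p = 0.215), -0.27 for Gabra5, -0.25 for Gabbr1, -0.51 for Gabbr2, -0.30 for Calb2, 0.23 for Dlx1 and 0.09 for Sox6. Without libraries 12 and 18, the ones with a RIN under 6, 8 genes were lower and 2 higher in DEX, with 9.72% and 9.26% of all genes. As RIN differed between the groups in batch 1, RIN and treatment cannot be told apart there. Without libraries 1, 7 and 13, 10 genes were lower and 1 higher in DEX (10.9% and 8.6% of all genes), and 7 were lower in DEX + RU-486 (9.05% of all genes).

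Marker genes of other cells also moved in batch 1. In DEX, 4 of 5 neuronal genes and 4 of 7 genes of excitatory neurons were lower, and the neuronal genes summed to 2380 to 3104 CPM in control and 1758 to 2603 CPM in DEX. Of 7 oligodendrocyte lineage genes 5 were higher, with a sum of 59.2 to 272 CPM in control, 458 to 2081 CPM in DEX and 211 to 896 CPM in DEX + RU-486. Higher values were also called for 3 of 6 astrocyte genes and 3 of 4 genes of dividing cells. In DEX + RU-486, 4 of 5 neuronal genes and 1 of 7 excitatory neuron genes were lower, while 3 of 7 oligodendrocyte lineage, 2 of 6 astrocyte, 3 of 4 dividing cell and 2 of 4 endothelial and mural genes (Cldn5 and Flt1) were higher. The part of these cells in the values of the receptor and interneuron genes was not tested. Microglial markers were low, with Cx3cr1, Aif1 and P2ry12 at medians of 0.168 CPM or less in every group of batch 1. The 6 listed markers summed to at most 0.619 CPM in control, 1.36 CPM in DEX and 3.39 CPM in DEX + RU-486. Of the 3 tested, 0 were called in either comparison with control.

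Other genes of the GABA pathway were counted from lists. Of 6 tested genes for uptake, breakdown and chloride balance, 2 were lower in DEX in batch 1, the GABA transporter Slc6a11 (-0.90, SE 0.18, edgeR adjusted p = 0.00199) and Aldh5a1, which clears succinic semialdehyde from GABA breakdown (-0.51, SE 0.14). Both were also lower in DEX + RU-486, at -0.65 and -0.48. Over all genes of batch 1, 9.99% were lower in DEX and 8.46% in DEX + RU-486. In the intact libraries of batch 2 a single gene of this list was called, the chloride importer Slc12a2, higher in DEX against control (0.60, edgeR adjusted p = 0.0359) and, for DEX + RU-486 against DEX, lower (-0.73, adjusted p = 0.0175). Over all genes 0.329% were higher in the first of these comparisons and 0.811% lower in the second. Without libraries 35 and 36 Slc12a2 was at 0.61 (edgeR adjusted p = 0.0192) and -0.61 (adjusted p = 0.257). Of 13 genes of the inhibitory postsynapse 3 were lower in DEX, the GABA-A auxiliary proteins Shisa7 (-0.50) and Lhfpl4 (-0.35) and the gephyrin partner Insyn1 (-0.33), and 2 in DEX + RU-486, Lhfpl4 (-0.54) and Insyn1 (-0.39). These counts stand beside the same 9.99% and 8.46% of all genes. None of 7 tested GABA-B auxiliary and effector genes was called in DEX. In DEX + RU-486, 1 of them, Kctd12b, was higher from a level near 0. Of 28 other interneuron genes 3 were higher in DEX (among them Prox1 at 1.52 and Maf at 0.77) and 2 lower (Cnr1 at -0.66, Nos1 at -0.40), beside 8.99% and 9.99% of all genes. In DEX + RU-486 5 were higher and 2 lower, beside 6.92% and 8.46% of all genes. Prox1 has roles in other cells as well. As a check of the treatment, 2 of 6 targets of the glucocorticoid receptor were higher in DEX in batch 1, Tsc22d3 (0.67) and Per1 (0.80). In DEX + RU-486 of batch 1 Per1 was also higher (0.75, edgeR adjusted p = 0.0158), as 1 of 6, and none was higher in the intact libraries of batch 2.

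Promoters of the set were searched for the response elements of the glucocorticoid receptor and of cAMP signalling. The table of RefSeq promoters (GRCm38.p6) gives 250 bases before to 50 after each gene's start and held 25 of the 30 tested genes. On both strands, none of the 25 held the exact string AGAACANNNTGTTC, used here for the glucocorticoid response element. Of all 32851 promoters only 16 held it (0.0487%), so its absence from 25 cannot tell whether the receptor binds them. The cAMP response element TGACGTCA, found in 1.79% of all promoters, was in the window of Sst alone, at -48 to -41 from the start. The 30 bases around it (chr16:23890874-23890903, minus strand) are shown with the element in capitals, because Sst had the highest level per kilobase in batch 2, and the bases lie within the first exon of Sst as GENCODE draws it. Gabra2 and Gabra5 were lower without overlap in both treatments of batch 1. The 250 bases before the starts of Gabra2 (chr5:71095850-71096099, minus strand) and Gabra5 (chr7:57510060-57510309, minus strand) are therefore shown, and they hold neither searched string. Their GC contents were 70.0% and 56.4%.
Sst: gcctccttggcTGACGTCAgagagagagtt
Gabra2: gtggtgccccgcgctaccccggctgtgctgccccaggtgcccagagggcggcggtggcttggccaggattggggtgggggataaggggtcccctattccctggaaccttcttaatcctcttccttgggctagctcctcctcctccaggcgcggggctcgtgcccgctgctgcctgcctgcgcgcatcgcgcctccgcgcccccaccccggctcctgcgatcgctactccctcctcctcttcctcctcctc
Gabra5: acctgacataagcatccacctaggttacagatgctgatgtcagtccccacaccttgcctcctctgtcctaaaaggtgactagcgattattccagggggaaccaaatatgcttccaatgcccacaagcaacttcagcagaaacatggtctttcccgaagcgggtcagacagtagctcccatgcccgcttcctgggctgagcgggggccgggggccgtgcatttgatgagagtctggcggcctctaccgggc

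In the intact libraries of batch 2 none of the 30 genes was called for DEX against control by edgeR, where 0.236% of all genes were lower and 0.329% higher. The unadjusted p was under 0.05 for 3 lower genes (Gabbr1, Gabrb2 and Calb1) and 0 higher ones, beside 8.61% and 8.58% of all genes. DESeq2 called 1, Gabbr1, as lower, beside 3.2% of all genes. Gabbr1 was at 236, 233, 238 and 251 CPM in control and 203, 184, 203 and 217 CPM in DEX, so that every DEX library was below every control, with a log2 fold change of -0.23 (SE 0.07, edgeR adjusted p = 0.113). Gabrb2 was at 29.5, 29.6, 26.8 and 29.1 CPM in control and 21.9, 21.3, 25.5 and 25.8 CPM in DEX, also without overlap, at -0.27 (SE 0.09, adjusted p = 0.152).

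The genes with the clearest differences in batch 1 showed smaller values in batch 2. Gabra2 was at 112, 119, 130 and 131 CPM in control and 97.1, 113, 125 and 119 CPM in DEX, which overlap, with a log2 fold change of -0.10 (SE 0.08). Gabra5 had 49.7, 50.5, 55.6 and 52.0 CPM in control and 28.7, 35.2, 47.0 and 58.2 CPM in DEX, at -0.28 (SE 0.17), its DEX libraries spread over both sides of the control range. Calb2 was at 7.0, 6.1, 7.0 and 5.4 CPM in control and 5.2, 6.6, 3.5 and 6.4 CPM in DEX, at -0.22 (SE 0.19). Dlx1 was at 0.14 (SE 0.25) and Sox6 at 0.35 (SE 0.34). Gad1, Gad2, Slc32a1, Sst and Npy had values of 0.01, 0.14, 0.09, 0.24 and 0.48, each within 1 SE of 0.

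The difference between batches was tested itself, over the 30 libraries with a RIN of 3 or above. For DEX against control edgeR called 0 of the 30 genes, against 1.65% of all genes with a higher and 0.619% with a lower value in batch 2 than in batch 1. At an unadjusted p under 0.05 there were 6, all positive, where 10.1% of all genes had positive and 7.28% negative values, and DESeq2 called 2, Gabra2 and Gabrg3, beside 1.98% of all genes with positive values. In edgeR Gabra2 differed between batches by 0.72 (SE 0.20, adjusted p = 0.0524) and Gabrg3 by 0.74 (SE 0.21, adjusted p = 0.0568). The other receptor genes called in batch 1, and Gphn, differed by 0.28 to 0.82 with adjusted p of 0.185 to 0.371. Without the libraries with a RIN under 6 edgeR called both, Gabra2 at 0.64 (SE 0.16, adjusted p = 0.0176) and Gabrg3 at 0.69 (SE 0.20, adjusted p = 0.0469), against 3.18% of all genes with a positive difference.

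**Figure D3:**
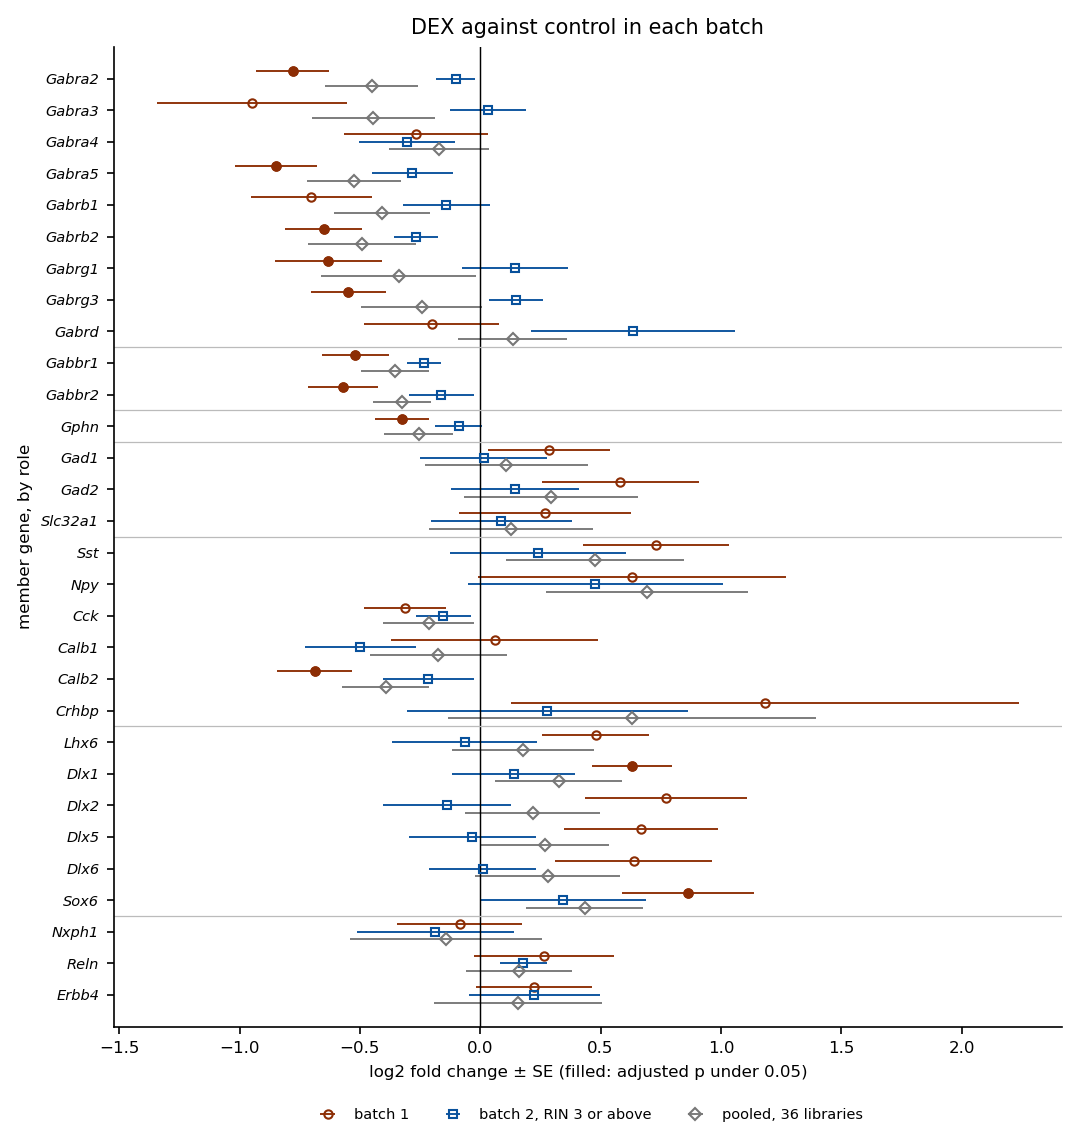
Log2 fold change ± SE of each gene for DEX against control in batch 1 and in the intact libraries of batch 2, from edgeR, with filled points for an adjusted p under 0.05. In batch 1, 9 genes are filled on the lower side and 2 on the higher side, and in batch 2 no point is filled.

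For DEX + RU-486 in batch 2 the result rested on 2 libraries. With all 12 intact libraries edgeR called 0 of the 30 genes against control, with an unadjusted p under 0.05 for 10 lower genes and 1 higher gene beside 3.80% and 3.75% of all genes, and DESeq2 called 0. At the adjusted threshold 0.00491% of all genes were lower and 0% higher. Dlx6 (-0.88, SE 0.23) and Dlx2 (-0.97, SE 0.27) had the smallest edgeR adjusted p, 0.506 for each. Without the count filter 12 of the 30 genes were called lower and 1 higher, beside 0.415% and 0.468% of all genes. Against DEX, with the count filter kept, edgeR also called 0. The unadjusted p was under 0.05 for 12 lower and 6 higher genes, where 9.295% and 10.01% of all genes had such values. At the adjusted threshold 0.811% of all genes were lower and 0.747% higher. The smallest adjusted p was that of Dlx6 (-0.89, SE 0.23, adjusted p = 0.0588). Leaving out each library in turn gave 0 to 12 called genes of the 30. Without the count filter 11 were called lower and 3 higher, beside 1.82% and 1.59% of all genes. DESeq2 called 4 in this comparison, Dlx2 and Dlx6 lower and Gabrb1 and Calb2 higher, beside 4.95% and 4.61% of all genes.

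Libraries 35 and 36 stood apart from libraries 33 and 34 of the same group in the genes of inhibitory neurons. Gad1 was at 155 and 129 CPM in libraries 33 and 34 and at 49.7 and 55.5 CPM in 35 and 36, while the intact control and DEX libraries were at 128 to 165 CPM. Gad2 was at 69.2 and 57.9 CPM against 22.6 and 25.1 CPM, Slc32a1 at 17.5 and 15.3 CPM against 4.37 and 6.47 CPM, and Sst at 123 and 90.4 CPM against 24.1 and 28.3 CPM. Npy was at 5.25 and 3.75 CPM against 0.538 and 1.06 CPM. Libraries 33 and 34 lay within the range of the intact control and DEX libraries for Gad1, Gad2, Sst and Npy.

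In all, 15 of the 30 genes lay below the 10 other intact libraries in both 35 and 36, against 7.19% of all genes. They were Gad1, Gad2, Slc32a1, Sst, Npy, Crhbp, Nxph1, Reln, Erbb4 and all 6 transcription factors. Another 4 lay above, Gabra5, Gabrb1, Gabbr2 and Calb2, against 8.38% of all genes. Gabrb1 was at 38.8 and 35.8 CPM in libraries 33 and 34 and 63.9 and 68.0 CPM in 35 and 36. The 7 oligodendrocyte lineage markers summed to 130 and 178 CPM in 35 and 36, below every other intact library of batch 2 (336 CPM or above), and the 4 markers of dividing cells to 6.62 and 7.26 CPM, also the lowest. The 7 excitatory neuron markers summed to 562 and 587 CPM in these libraries and to 550 to 565 CPM in the intact controls. The part of these cells in the values was not tested.

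Without libraries 35 and 36 edgeR called 0 genes of the set in each comparison of batch 2. Over the whole table it called 1.05% higher and 0.992% lower for DEX against control. For DEX + RU-486 these shares were 0% and 0% against control, and 0% and 0.0344% against DEX. At an unadjusted p under 0.05 the set had 5 genes for DEX against control, beside 17.9% of all genes. It had 2 for DEX + RU-486 against control and 2 against DEX, beside 3.52% and 7.65%. DESeq2 was not run without libraries 35 and 36. Against control Dlx6 was then at -0.59 (SE 0.26) and Dlx2 at -0.43 (SE 0.17), each with an edgeR adjusted p of 1.00. The log2 difference of DEX + RU-486 from DEX went from -0.58 to -0.03 for Gad1, from -0.71 to -0.18 for Gad2, from -0.77 to -0.19 for Slc32a1 and from -0.97 to -0.28 for Sst. For Sox6 it went from -1.05 to -0.39 and for Dlx6 from -0.89 to -0.60. On the other side Gabrb1 went from 0.60 to 0.12, whereas Calb2 went from 0.61 to 0.48. The 2 libraries left in the group were assumed to vary as the others do.

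**Figure D4:**
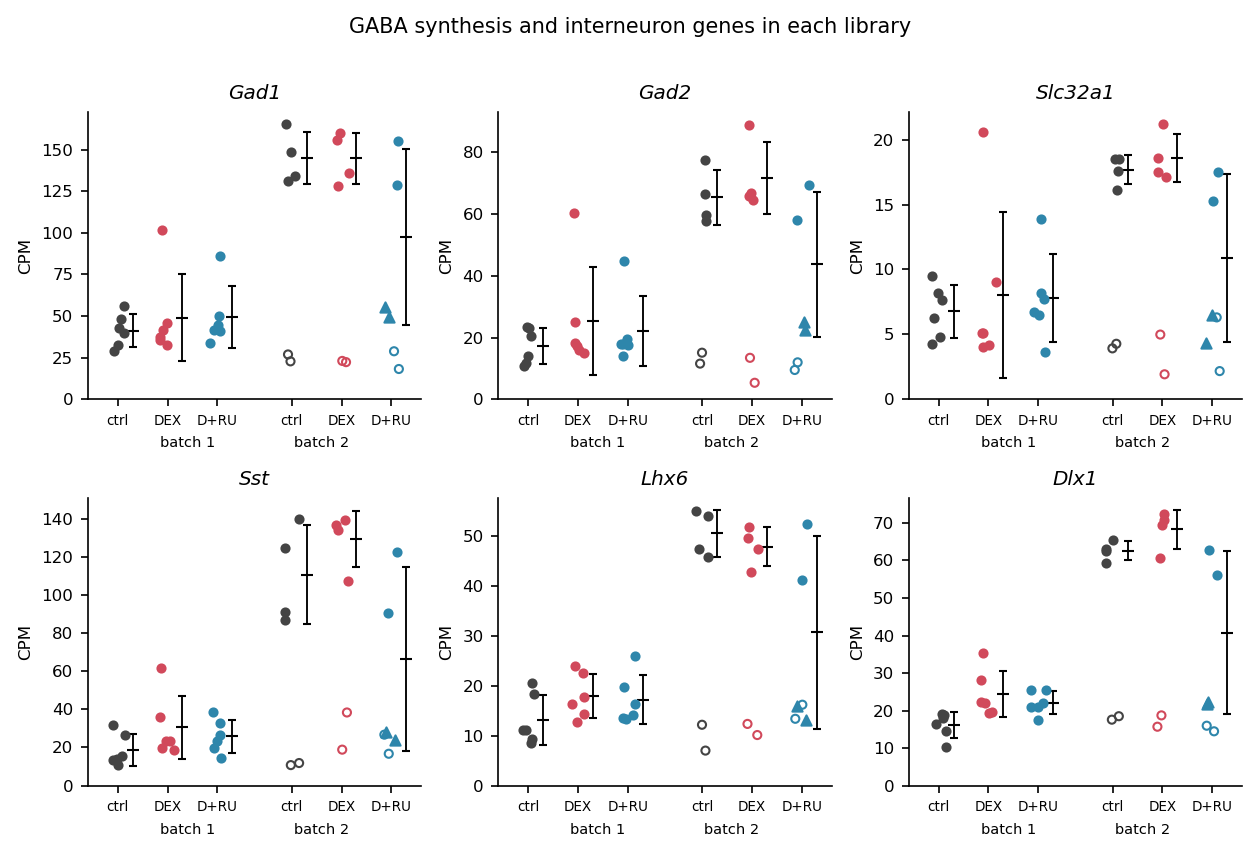
CPM of interneuron genes in every library by treatment and batch, with open circles for a RIN under 3, triangles for libraries 35 and 36, and bars for the mean ± SD of libraries with a RIN of 3 or above. The triangles of Gad1 lie at 49.7 and 55.5 CPM, below the other intact libraries of batch 2 (128 to 165 CPM) and among those of batch 1.

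In edgeR over 30 libraries, only Calb2 of the 30 genes had a difference between batches that passed for DEX + RU-486 against control. The fold change was -0.56 in batch 1 and 0.40 (SE 0.19) in batch 2, a difference of 0.98 (SE 0.25, edgeR adjusted p = 0.0464), against 0.619% of all genes with a positive and 0.393% with a negative difference. In batch 2 Calb2 was at 6.9, 8.3, 8.8 and 9.2 CPM in DEX + RU-486 libraries 33 to 36, and at 7.0 CPM or less in the controls. DESeq2 called 6 genes, Gabra5, Gabbr2 and Calb2 with positive and Dlx1, Dlx2 and Dlx6 with negative values, beside 2.09% and 2.04% of all genes. With all 36 libraries edgeR called 0 genes, and 7 were at an unadjusted p under 0.05, beside 11.9% of all genes. Without the libraries with a RIN under 6 it called Gabra5 and Calb2 with positive values and Dlx2 with a negative value. The shares of all genes in that setting were 1.27% positive and 0.639% negative. Without libraries 35 and 36 the difference for Calb2 was 0.85 (SE 0.29) and did not pass (edgeR adjusted p = 0.374), and 0 of the 30 genes were called, with 5 at an unadjusted p under 0.05, beside 9.07% of all genes.

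**Figure D5:**
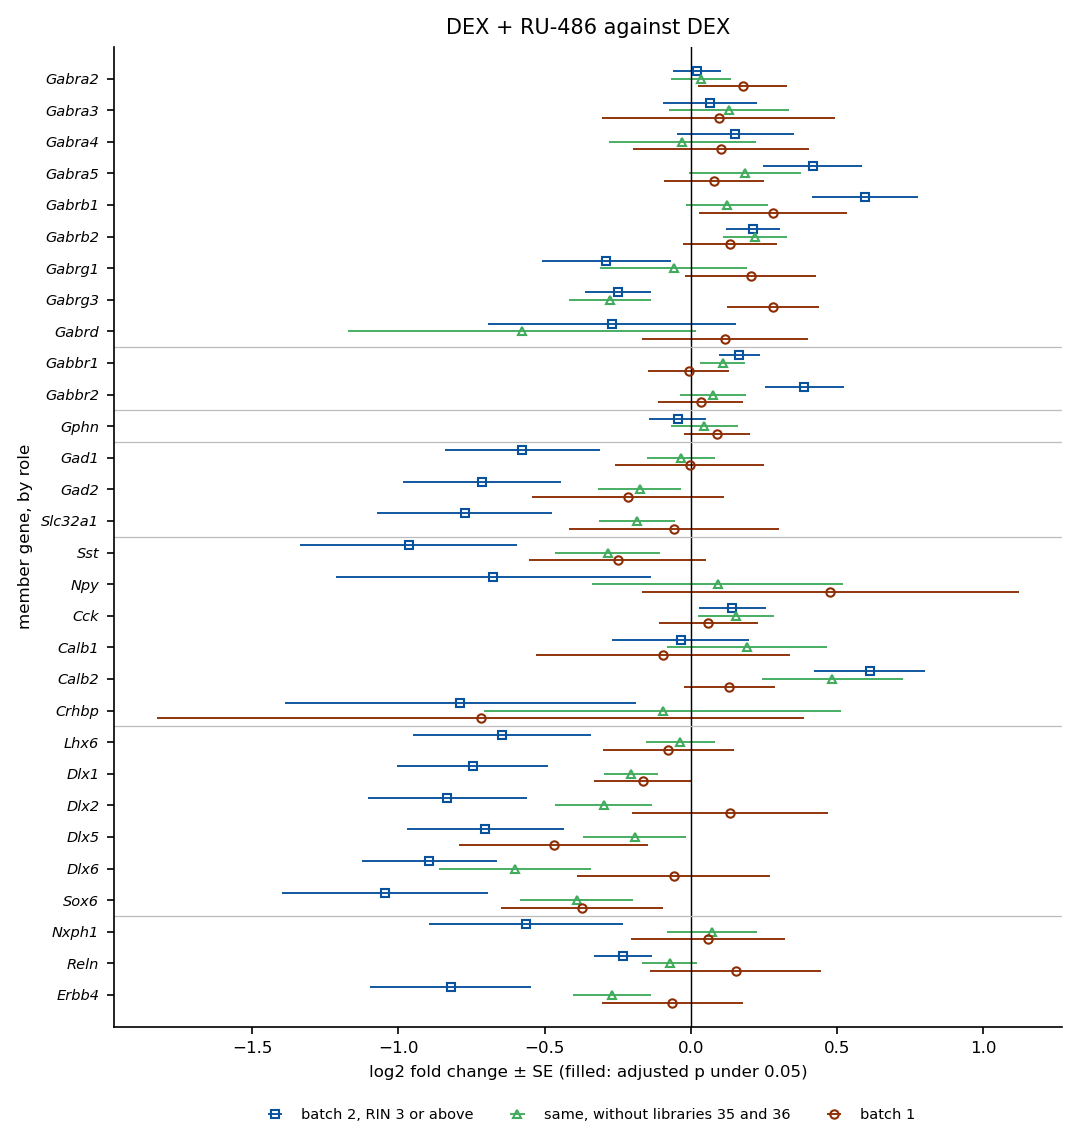
Log2 fold change ± SE of each gene for DEX + RU-486 against DEX, from edgeR, in batch 1, in the intact libraries of batch 2 and in batch 2 without libraries 35 and 36. Sst is at -0.97 with and -0.28 without these libraries, and no point is filled, since none had an adjusted p under 0.05.

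Over both batches together, with batch as a covariate and all 36 libraries, edgeR called 0 of the 30 genes in each of the 3 comparisons, as did DESeq2. Of all genes DESeq2 called 1.51% higher and 1.38% lower for DEX against control. For DEX + RU-486 its shares were 0.262% and 0.284% against control, and 0% and 0.00984% against DEX. For DEX against control the unadjusted p was under 0.05 for 7 lower and 0 higher genes, beside 10.07% and 6.86% of all genes, and the smallest adjusted p was 0.165. For DEX + RU-486 at the same unadjusted threshold 1 was lower against control, where 6.63% of all genes were, and 1 against DEX, where 1.23% were. After adjustment 0.00983% of all genes were lower and 0.0147% higher for DEX against control, and 0% in either direction for the other 2 comparisons. Gabra2 had a pooled log2 fold change of -0.45 (SE 0.19, edgeR adjusted p = 0.223) for DEX. Leaving out the 6 libraries with a RIN under 3 gave 8 lower genes for DEX and 3 for DEX + RU-486, where 12% and 6.65% of all genes were lower. Leaving out 35 and 36 as well gave 8 lower and 2 higher for DEX, against 12% and 8.12% of all genes, and 5 lower for DEX + RU-486, against 8.01%.

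Control cultures of the batches differed widely in this set. Between the intact controls of batch 2 and the controls of batch 1, 15 of the 30 genes were higher in batch 2 without overlap, against 14.9% of all genes, and 11 were lower, against 16.4%. Sst was 5.88-fold higher (87.1 to 140.1 CPM against 10.7 to 31.8 CPM), Gad1 3.50-fold, Gad2 3.78-fold, Dlx2 4.04-fold, Lhx6 3.83-fold and Erbb4 3.60-fold. These 15 genes were the same 15 that were low in libraries 35 and 36. There all 15 lay inside the range of the 18 libraries of batch 1, treated ones included. Dlx1, Dlx6 and Reln lay above every control library of batch 1 in both 35 and 36. The 11 lower ones were 7 GABA-A subunits, both GABA-B subunits, Cck and Calb2, with Calb2 at a ratio of 0.327 and Gabra5 at 0.509. Of the receptor genes, Gphn (0.974) and Gabrg3 (0.986) had nearly equal means. These ratios are a description of the control libraries of each batch, with no test.

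In the degraded libraries of batch 2, with a RIN under 3, 12 of the 30 genes lay below all 12 intact libraries, against 10.8% of all genes, and 0 lay above, against 8.03%. Gabra2 was at 34.3 to 76.6 CPM against 97.1 to 131 CPM in the intact libraries, and Gad1 at 18.3 to 28.9 CPM against 49.7 to 165 CPM. Libraries 35 and 36 are among the intact ones, so a gene low in both could overlap the degraded libraries through them. Sst, for example, reached 38.4 CPM in the degraded libraries. It was at 24.1 and 28.3 CPM in libraries 35 and 36 and at 87.1 CPM or above in the 10 other intact libraries. Crhbp had 0 counts in all 6 degraded libraries. Nxph1 was at 0.113 of the intact mean, and Gabrd, Gabbr2, Npy and Sox6 had ratios of 0.98, 1.02, 1.03 and 1.22. Gabrd, Gabbr2, Npy and Sox6 thus lacked the lower level seen for most of the set.

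The 3 genes below the count limit were not compared. Pvalb, which marks the fast-spiking interneurons, had 0 to 17 counts in a library and 0 counts in 14 of the 36, with a mean of 2.83. Vip, the peptide of another interneuron class, had 0 to 22 counts and was at 0 in 19 libraries. Crh had 0 to 26 counts and was at 0 in 9 libraries. Among the lists, 6 of 7 further subunits of GABA-A and GABA-C receptors were below the limit too. Differences in these genes are not reported here, given their low counts.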

How the data were processed

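The authors aligned reads of 36 libraries to GRCm38 with HISAT2 2.1.0 and counted them with Subread 1.5.0-p2, per the methods and the submitters' processing notes. The deposited table holds raw counts per gene without normalization. The labels give poly(A) selection and the methods a total RNA library. Which of the described alignments the table holds, its annotation release and its strand setting are not given in the sources used here. Of 55492 entries, 5 are transgenes, and 55141 matched GENCODE names. Groups, batch and RIN came from the labels, doses and times from the methods.

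Genes with a mean count above 5 were kept. edgeR 4.0.16 in R 4.3.3 was run with TMM factors and the quasi-likelihood test with all 3 groups in 1 model (36 libraries with batch, batch 1, batch 2 with RIN 3 or above, and the interaction with batch), with Benjamini-Hochberg adjustment over all 20355 genes and a threshold of 0.05. An SE is the log2 fold change divided by the square root of F. DESeq2 1.42.0, upper-quartile factors, no count filter, RIN covariates and other sets of libraries were alternatives. Members and lists were chosen with earlier results of these data known. Values of each library, or lowest, median and highest, were given for members in the edgeR comparison that called them and, for DEX against control in batch 1, for Gad1, Gad2, Slc32a1, Sst and Npy, and counts for Pvalb. List genes outside the set were named only where they passed, except that results for some single genes are not reported here, and cell markers only where a result touched them. The scripts were tested on simulated data. Total counts of 12.1 to 82.4 M set the counting error, which intervals between libraries include.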

Additional observations from a re-analysis of the deposited data

Results flagged for a closer look

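Of 180 groups of 4 or 6 libraries (30 genes, 3 treatments, 2 batches without RIN under 3), 28 held a library far from the others of its group by Dixon's test, in 19 genes, where chance marks about 1 in 20 groups, or 9.

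In batch 1, 7 came from DEX library 7, which was high for Gabra3 (23.6 CPM), Gad1 (102 CPM), Gad2 (60.2 CPM), Slc32a1 (20.6 CPM), Calb1 (44.4 CPM) and Nxph1 (21.2 CPM) and low for Gabrd (0.741 CPM). DEX + RU-486 library 13 was high for Gad1 (86.1 CPM), Gad2 (44.8 CPM), Calb1 (33.7 CPM) and Nxph1 (21.4 CPM), and control library 1 for Gabra3 (44.1 CPM) and Gabrb1 (116 CPM). DEX + RU-486 library 18, with a RIN of 5.6, was high for Npy (5.39 CPM), Crhbp (0.462 CPM), Dlx2 (16.6 CPM), Dlx6 (2.31 CPM) and Sox6 (15.1 CPM) and low for Gabrg1 (3.70 CPM). Dlx5 was high in DEX library 12 (10.4 CPM) and Crhbp in DEX library 9 (0.722 CPM).

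In batch 2, DEX library 27 was low for Cck (17.8 CPM) and high for Dlx5 (16.5 CPM), and DEX library 30 low for Sst (107 CPM) and high for Reln (96.6 CPM). Gad2 was high in DEX library 29 (88.9 CPM), Reln in control library 24 (90.2 CPM) and Gabbr1 in DEX + RU-486 library 36 (248 CPM).

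Calb2 differed between batches in its response to DEX + RU-486 by 0.98 on the log2 scale (edgeR adjusted p = 0.0464, interaction over 30 libraries). Without libraries 35 and 36 it was 0.85 and did not pass (adjusted p = 0.374).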

How the results depend on the processing

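Over all alternatives, 106 counts of called genes stayed within 1.5 times the value reported and 22 did not. The 106 include counts that were 0 both as reported and in the alternative. For DEX + RU-486 against DEX in batch 1, all 12 counts on leaving out a library were of this kind. Counts other than 0 stayed within the limit only in the comparisons with control in batch 1. For single called genes, 177 values on leaving out a library and 81 under other settings kept their direction and side of the threshold, 27 and 25 kept their direction and missed it, and 0 reversed. Over both batches, leaving out RIN under 3 gave 8 (DEX against control) and 3 (DEX + RU-486 against control) called genes in place of 0 and 0, leaving out RIN under 6 gave 8 and 2, and leaving out RIN under 3 with libraries 35 and 36, a setting chosen after seeing the data as was the one without libraries 1, 7 and 13, gave 10 and 5. In batch 1 RIN as a covariate gave 0 and 0 in place of 11 and 6. In batch 2 DESeq2 gave 1 for DEX against control and 4 for DEX + RU-486 against DEX in place of 0. No count filter gave 1 for DEX against control, 13 for DEX + RU-486 against control and 14 against DEX, in place of 0. Beside these, 1.38%, 0.468% and 1.59% of all genes were higher and 1.27%, 0.415% and 1.82% lower. For the difference between batches, leaving out RIN under 6 gave 2 (DEX) and 3 (DEX + RU-486), DESeq2 2 and 6, and both all 36 libraries and leaving out 35 and 36 gave 0 for DEX + RU-486, in place of 0 and 1. Leaving out each library in turn gave 8 to 12 (DEX against control), 4 to 7 (DEX + RU-486 against control) and 0 to 0 (DEX + RU-486 against DEX) in batch 1, and 0 to 0, 0 to 0 and 0 to 12 in batch 2, where the last count was 12 without library 33, 3 without 30 and 2 without 34. The causes were not tested. By CPM without division by length, 7 of the 10 highest genes of batch 1 controls and 9 of 10 of batch 2 stayed in that list. No paired analysis was run, because library numbers are unique and shared by no groups. A block by the order of libraries within groups was not tried. Low counts limit Crhbp, Gabrd, Npy and Dlx6 most.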
